A study of Mus musculus with 2 samples.

Results

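The shortest abundant RNA fragments of these cells were followed here: distinct sequences of 15 to 17 nt, selected on having at least 10 reads summed over a Dicer f/f and a Dicer null library. There were 6490 such sequences among 118549 distinct sequences of 15 to 17 nt and 1236583 distinct sequences of any length. They held 483348 reads in f/f, 4.86% of that library and 89.1% of its reads of 15 to 17 nt, and 482957 reads in null, 7.68% of that library and 77.6% of its reads of 15 to 17 nt. They were chosen by this sum of reads, which is therefore given as a description: the median was 21 reads, 930 sequences had at least 100 reads and 136 had at least 1000. Just inside the minimum lay 503 sequences with exactly 10 reads, and just outside it 668 with 9. Both libraries held 4571 of the sequences, 1135 were seen in f/f only and 784 in null only. Thus f/f held 5706 of the 6490 and null 5355. Of the 53700 sequences of at least 18 nt with at least 10 reads, f/f held 42762 and null 41686. A sequence with few reads can be absent from a library through depth alone.

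The RNA came from immortalized, monoclonal lines of mesenchymal stem cells (MSCs), a kind of fibroblast found in the bone marrow of adult mice, here of the C57BL/6 strain. The f/f line carries Dicer f/f alleles, which the labels count as wild type, and the null line is Dicer -/-; the title of the null sample ends in a number whose meaning is not stated. Both were cultured in Alpha-MEM with 10% fetal bovine serum until nearly confluent, and RNA of 15 to 50 nt was cut from a gel, so the window described here lies at the lower edge of the size selection. Each genotype has 1 library from 1 clone: no difference has a replicate check, the clone and the genotype cannot be told apart, and no test across genotypes or p-value is given.

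Dicer cuts the precursor hairpins of miRNAs into mature miRNAs, which an Argonaute protein holds and which find their targets through the seed, bases 2 to 8 from the 5′ end. Transfer RNAs carry an added CCA at their 3′ end, and fragments of mature tRNAs that end in CCA are common in small RNA libraries. Fragments of other small structured RNAs are found beside them: 5S rRNA of the large ribosomal subunit, box C/D and H/ACA snoRNAs that guide rRNA modification, Y RNAs that bind the Ro protein, and mitochondrial tRNAs and rRNAs.

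The sequences that carry the results fall into 3 sets. The first set gives mature miRNAs from RefSeq (GRCm38.p6), with the seed in capitals; let-7b-5p and let-7c-5p share a seed, and the seeds of the others differ.
miR-22-3p: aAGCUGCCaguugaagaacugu
miR-125b-5p: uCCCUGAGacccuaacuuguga
miR-199a-3p and miR-199b-3p: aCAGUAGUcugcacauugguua
miR-21a-5p: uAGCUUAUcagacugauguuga
miR-24-3p: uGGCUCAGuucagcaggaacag
miR-140-3p: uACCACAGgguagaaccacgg
let-7b-5p: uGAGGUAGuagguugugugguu
let-7c-5p: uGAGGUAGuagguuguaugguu
miR-574-3p: cACGCUCAugcacacacccaca
miR-29a-3p: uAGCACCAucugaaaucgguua
The second set gives, as sequenced, the commonest short read of each of these miRNAs that matches its hairpin over its whole length, with the bases that belong to the seed in capitals. It shows how little of the seed these reads keep.
miR-22-3p read: CCagttgaagaactgt
miR-125b-5p read: AGaccctaacttgtga
miR-199a-3p and miR-199b-3p read: GTctgcacattggtta
miR-21a-5p read: ATcagactgatgttga
miR-24-3p read: AGttcagcaggaacag
miR-140-3p read: Gggtagaaccacggac
let-7b-5p read: TAGtaggttgtgtggt
let-7c-5p read: TAGtaggttgtatggt
miR-574-3p read: Atgcacacacccaca
miR-29a-3p read: CAtctgaaatcggtta
The third set gives the leading sequences of the null library. The first pair differs by 1 base, in capitals, and the others end in CCA, in capitals.
Null leader 1: gcccggCtagctcagt
Null leader 2: gcccggAtagctcagt
CCA leader 1: cccggcatctccaCCA
CCA leader 2: cccggccaatgcaCCA
CCA leader 3: ctcacctggagcaCCA
CCA leader 4: cccgtacgggccaCCA

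Sequencing gave 9943989 reads for f/f and 6291599 for null. Levels are in CPM, reads scaled to an equal library total. The value of 3 reads, 0.302 CPM in f/f or 0.477 CPM in null, is the most that a count of 0 allows. All intervals are 95% intervals, exact Clopper-Pearson for shares and exact conditional for ratios. They cover counting error only, since reads copied by PCR are not independent molecules. Ratios compare CPM over all reads of a library, null over f/f. Reads of at least 18 nt that matched snoRNAs or snRNAs were 4.31-fold higher in null on that scale, 2.11 on the log2 scale, so any sequence or class given here as less than 4.31-fold higher in null is lower in null per snoRNA and snRNA read. Reads of at least 18 nt that matched Dicer1 mRNA numbered 26 in f/f and 66 in null; the labels do not say which exon was deleted, so these did not check the genotype, and no short sequence matched Dicer1.

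A peak at 16 nt stood out in both libraries. In f/f, 387558 reads were 16 nt long, 3.90% of the library, against 0.661% at 15 nt and 0.897% at 17 nt. In null, 390032 reads were 16 nt long, 6.20% of the library, against 1.48% at 15 nt and 2.22% at 17 nt. The peak was sharper in f/f, where reads of 16 nt were 5.90 times those of 15 nt and 4.35 times those of 17 nt; in null these factors were 4.20 and 2.79. The share of 16-nt reads was 1.59-fold higher in null (1.58 to 1.60), the smallest ratio of the 3 lengths, and the whole window from 15 to 17 nt was 1.81-fold higher (1.81 to 1.82). Per snoRNA and snRNA read both turned: the window stood at 0.421 and the 16-nt peak at 0.369 of the f/f level.

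**Figure D1:**
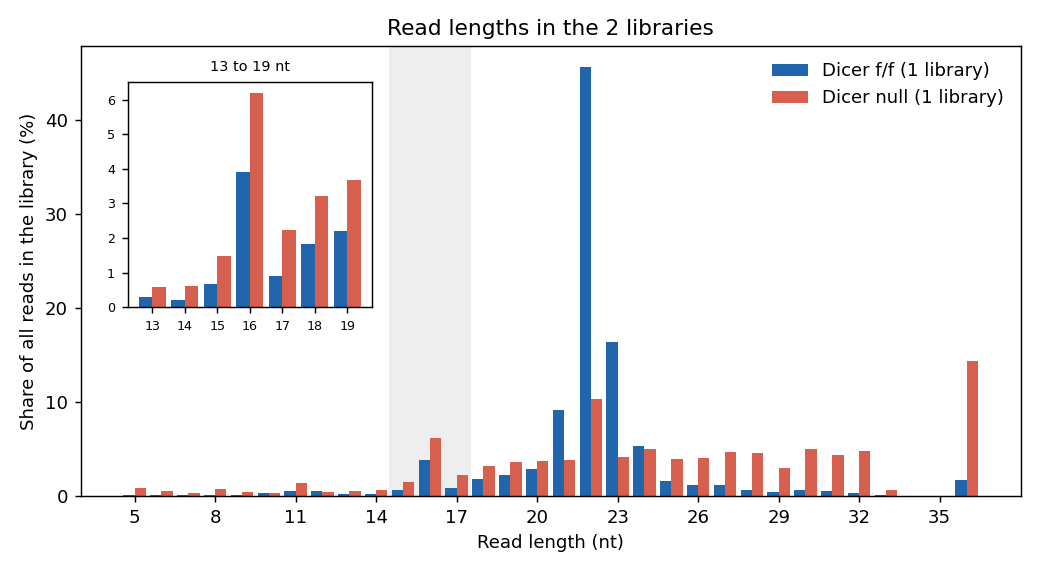
Share of all reads (%) by read length (nt) in the f/f and null libraries (1 library each), with 15 to 17 nt shaded and 13 to 19 nt enlarged. Both libraries peak at 16 nt, at 3.90% in f/f and 6.20% in null, beside the peak at 22 nt of 45.6% in f/f and 10.4% in null.

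The 2 peaks at 16 nt were made of different RNAs. In f/f, sequences inside annotated miRNA hairpins held 67.6% of the 16-nt reads of the short sequences, those ending in CCA 14.7%, and those in no class 16.7%. In null, miRNA hairpins held 0.712% of them, CCA ends 46.2% and sequences in no class 50.5%. At 15 nt the miRNA share was 32.6% in f/f and 0.879% in null, and at 17 nt it was 25.2% and 2.73%. The miRNA share in f/f was therefore highest at the peak length, and the CCA share in null was highest there too, since CCA ends took 27.4% of the null reads at 15 nt and 22.6% at 17 nt.

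**Figure D2:**
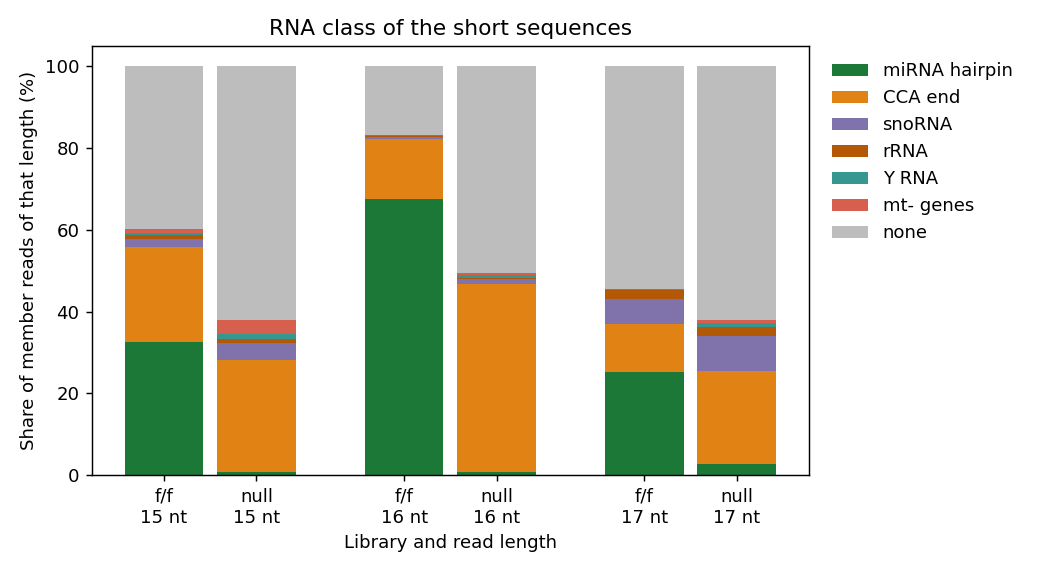
Share (%) of the reads of the 6490 short sequences in each RNA class, by library and read length (nt). At 16 nt the miRNA class holds 67.6% of the reads in f/f and 0.712% in null, and CCA ends hold 14.7% and 46.2%.

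By class, 840 sequences matched a miRNA hairpin, 26 an rRNA, 311 a snoRNA, 55 a Y RNA, 68 a mitochondrial gene, 957 ended in CCA and 4233 fell in no class. Of all 6490 sequences, 1576 (24.3%) had a level in null over 2-fold below that in f/f, and 4183 (64.5%) a level over 2-fold above it. Over all 64341 sequences of any length with at least 10 reads these shares were 26.4% lower and 65.6% higher, so the short sequences as a whole stood near the background. Their median difference, null over f/f, was 2.15 on the log2 scale, beside 2.40 over all sequences. The classes split this count. Of the 840 miRNA sequences 732 were lower and 80 higher, while of the 957 CCA sequences 820 were higher and 43 lower. In CPM, a sequence with 0 reads in 1 library always passes 2-fold, given the minimum of 10 reads and the 3 set for 0. Of the miRNA sequences 536 had 0 null reads, so their calls as lower were fixed in advance. Of the CCA sequences 90 had 0 f/f reads, and 639 were 1 base from a sequence with at least 20 times the reads. Per snoRNA and snRNA read the count of all short sequences turned to 2367 lower and 1720 higher.

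**Figure D3:**
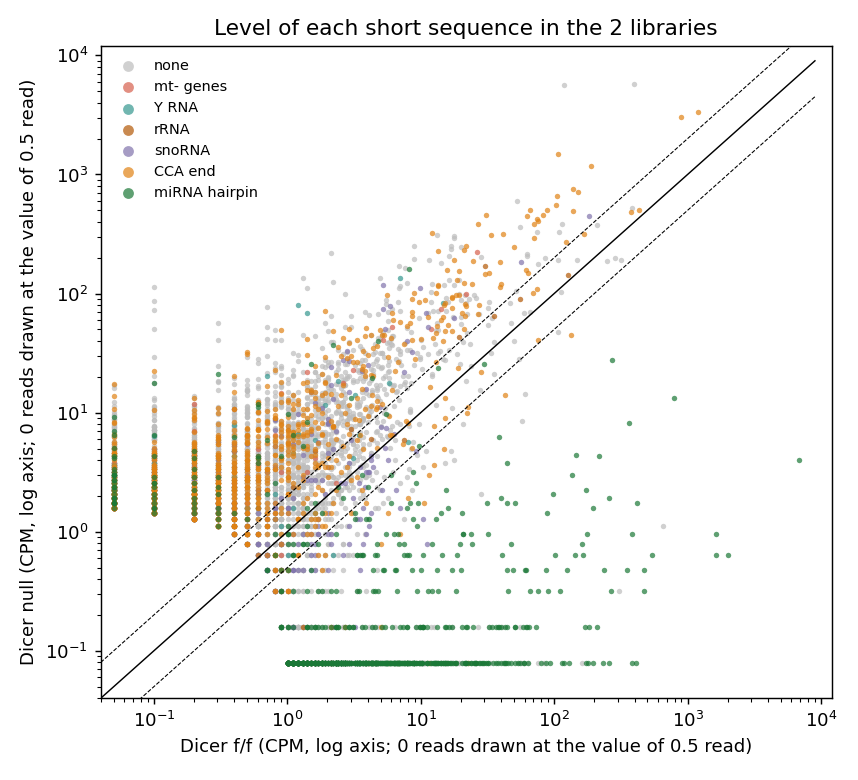
Level of each of the 6490 short sequences in f/f (horizontal) and null (vertical), in CPM on log axes, coloured by RNA class; the solid line marks equal CPM and the dashed lines a 2-fold difference. The miRNA sequences lie mostly below the lines (732 of 840, with 536 of the 840 at 0 null reads) and the CCA sequences mostly above (820 of 957). On the scale of snoRNA and snRNA reads the line of equality would lie 4.31-fold higher.

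The miRNA sequences held 278182 reads in f/f and 5384 in null, a 32.7-fold lower level in null (31.8 to 33.6) and 0.0071 of f/f per snoRNA and snRNA read. Their median difference was -2.59 on the log2 scale, a bound, since 536 of the 840 sequences had 0 null reads and were set to 3. In f/f, 87.3% of their reads were 16 nt long, against 43.2% in null. The antisense strand of the hairpins matched 3.13% of the reads of the short sequences in f/f and 0.153% in null. These include reads that also match a hairpin in sense, such as that of miR-24-3p with 5422 f/f reads. The antisense share is therefore no measure of chance matches alone.

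Among the miRNAs, the leading short sequence of f/f came from miR-22-3p, a widely expressed miRNA. Its 16-nt read was counted 68199 times in f/f and 25 times in null, 1726-fold lower (1169 to 2667). Mir22 lies on chromosome 11 (75463716 to 75463810, plus strand, GRCm38) in exons of Mir22hg and Tlcd2. The 16-nt read of miR-125b-5p, from Mir125b-1 on chromosome 9 and Mir125b-2 on chromosome 16 (77646273 to 77646343, in an intron of Mir99ahg), had 16206 reads in f/f and 6 in null. That of miR-199a-3p and miR-199b-3p had 16162 and 4, 2556-fold lower; of its hairpins, Mir199a-2 lies in an exon of Dnm3os on chromosome 1 (162217814 to 162217923). The leading 16-nt sequence of Mir145a had 20113 and 4 reads, 3181-fold lower. Each of these 4 had 25 reads or fewer in null.

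The 16-nt read of miR-21a-5p, a growth-linked miRNA, had 7830 reads in f/f and 84 in null, 59.0-fold lower, a smaller difference than that of miR-22-3p. Mir21a lies in an exon of Vmp1 on chromosome 11 (86584067 to 86584158, minus strand). The read of miR-24-3p had 5422 reads in f/f and 4 in null, and that of miR-140-3p, a cartilage miRNA from an exon of Wwp2 on chromosome 8 (107551244 to 107551313), 4674 and 2. Those of let-7b-5p had 4173 and 11, and those of let-7c-5p 3797 and 6. The let-7 family, which restrains growth and fetal genes, gave 79 sequences with 33857 reads in f/f and 356 in null. Of these, 77 were over 2-fold lower and 1 higher, beside 732 lower of all 840 miRNA sequences. Their median was -3.88 on the log2 scale, against -2.59 for all miRNA sequences.

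Other families were lower in null as well. The growth-promoting miR-17-92 group, paralogs included, gave 61 sequences with 4575 reads in f/f and 88 in null, of which 60 were lower and 0 higher. The miR-15/16 family, which slows the cell cycle, gave 57 sequences with 6627 and 359 reads, 52 lower and 5 higher. The miR-30 family gave 19 sequences with 650 and 42 reads, 17 lower and 1 higher. Beside these counts, 732 of all 840 miRNA sequences were lower and 80 higher, and 536 of the 840 had 0 null reads. The shares of miR-15/16 and miR-30 sequences that were lower thus lie near that of the class. Lists of miRNA markers were set beside the label of the cells. From the mesenchymal list (miR-199, miR-214, miR-143, miR-145, miR-21, miR-22 and miR-125b), 99 sequences held 153101 reads in f/f and 1671 in null. The leading read of the widely expressed miR-22 gave 68199 of these f/f reads, and the lists were chosen with earlier results known. The total is therefore no check of the label. Markers of other cells were few, with 2 sequences each for haematopoietic (49 and 0 reads), epithelial (2 and 28) and muscle miRNAs (187 and 0), 1 for the endothelial miR-126 (24 and 0), and 0 for neural, liver and pluripotent miRNAs.

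The position of these reads on the mature miRNA was not used to choose them. Of the 840 miRNA sequences, 673 could be placed on a RefSeq mature form, with 241770 reads in f/f (86.9% of the miRNA class) and 2400 in null (44.6%). In f/f, 60.4% of the placed reads began at base 7 of the mature miRNA, 18.9% at base 6, 8.40% at base 8 and 3.58% at base 5. Only 5.55% began at base 1. The 3′ end was that of the mature miRNA in 67.6% of the f/f reads and lay within 1 base of it in 88.2%. A single shape, 16 nt from base 7 to the mature end, was taken by 79 sequences and 54.6% of the placed f/f reads. These shares of reads rest much on 1 miRNA. The read of miR-22-3p alone gave 68199 of the 132063 f/f reads of this shape and of the 145959 that began at base 7. By number of sequences, 148 of the 673 began at base 7 and 152 at base 6. The read of miR-22-3p printed above has this shape, while those of let-7b-5p and let-7c-5p run from base 6 to base 21, and that of miR-140-3p begins at base 8.

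The f/f reads thus lacked the 5′ part of the miRNA: 5.83% held the whole seed, 92.7% a part of it and 1.498% none of it. In null the few placed reads had another shape. There 44.3% began at base 1, 288 of 2400 reads at base 7 and 15.7% at base 8, 47.4% held the whole seed, and 17.2% ended at the mature end. The shape from base 7 to the mature end took 8.33% of the null reads. Of the 1062 null reads that began at base 1, 251 were of 1 sequence of miR-503-5p. Each short sequence was also looked up in the reads of at least 18 nt of its library and given the place, start, end or inside, that it took most often there. For the miRNA class in f/f, 67.4% of the reads belonged to sequences whose commonest place was the end of longer reads, 25.7% to those mostly inside and 6.94% to those mostly at the start.

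**Figure D4:**
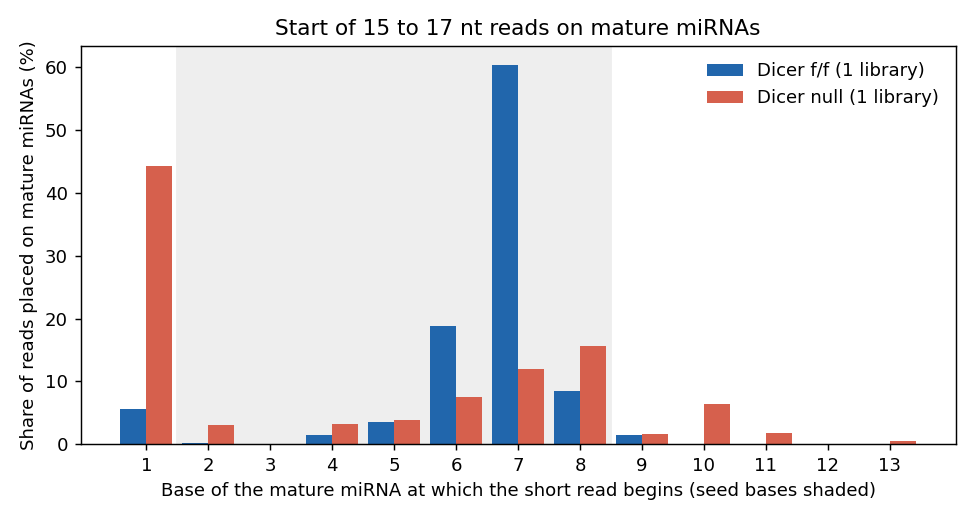
Share (%) of the reads of 15 to 17 nt placed on mature miRNAs by the base at which they begin, counted from the 5′ end, in f/f (241770 reads) and null (2400 reads), with the seed shaded. Base 7 leads in f/f with 60.4% and base 1 in null with 44.3%. The read of miR-22-3p alone gave 68199 of the 145959 f/f reads at base 7.

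The short share of each mature miRNA, its reads of 15 to 17 nt over all its reads of at least 15 nt, was compared over the forms with at least 1000 such reads. In f/f, 137 forms reached this level, with a median short share of 4.53% and a range from 0.140% to 86.1%. The 76 forms of 5p arms had a median of 3.31% and the 60 of 3p arms 6.96%. In null 18 forms reached it, all of 5p arms, with a median of 1.18% and a highest value of 9.81%. Only 6 forms in f/f exceeded 10%.

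The form miR-574-3p stood at the top in f/f. It had 3922 reads of 15 to 17 nt and 632 of 18 to 23 nt, so that 86.1% of its reads were short (85.1 to 87.1); its leading 15-nt read, bases 8 to 22, had 3822 reads in f/f and 0 in null. Mir574 lies in an intron of Fam114a1 on chromosome 5 (64970318 to 64970395). The form miR-29a-3p, a regulator of collagen genes, followed with 48.3% (47.1 to 49.6), from 3143 short reads and 3356 of 18 to 23 nt. Next came miR-455-3p with 20.2% and miR-34b-3p with 17.1%. For miR-22-3p the share was 8.86%, for miR-125b-5p 7.002%, for miR-21a-5p 3.18% and for let-7c-5p 1.83%. At the lower end, miR-19a-3p had 3 short reads and a share of 0.140%. The form with most short reads, miR-22-3p, was thus not among those with the highest short share.

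Higher in null were 80 of the 840 miRNA sequences, among them the 3 that led the class in null. A 17-nt sequence of Mir214, which shares the Dnm3os transcript on chromosome 1 (162223368 to 162223477), had 81 reads in f/f and 1009 in null, 19.7-fold higher (15.7 to 25.01). A 17-nt sequence of Mir21a had 22 and 234, 16.8-fold higher (10.8 to 27.3). Both ratios exceed the 4.31-fold scale difference. Both sequences lie in front of the mature 5p form: the Mir21a sequence ends at the base before it, and the Mir214 sequence overlaps it by 1 base. In all, 9 sequences lay there, within 2 bases of the 5p start, with 113 reads in f/f and 1349 in null, 0.0406% and 25.1% of the miRNA class. The leading pair is printed for this position.
Mir214 flank: agagttgtcatgtgtct
Mir21a flank: tgtaccaccttgtcgga
Drosha, which acts before Dicer, makes the cut at that edge of the hairpin. For Mir214 as a whole, the short sequences that matched this hairpin alone had 3558 reads in f/f and 1043 in null, so nearly all its null reads were of the flank. Another sequence, bases 1 to 17 of miR-503-5p, had 48 reads in f/f and 251 in null, 8.26-fold higher (6.05 to 11.5); in null 257 reads of this form were short, 37 were of 18 to 23 nt and 670 were longer. Hairpins with no RefSeq mature form here held another 1349 null reads and 33210 f/f reads, and some of them were higher in null by more than the flanks: Gm44318 and its copies had 6 reads in f/f and 329 in null, 86.7-fold higher (39.4 to 238), and Gm47276 and its copies 7 and 136, 30.7-fold higher (14.5 to 77.8).

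The CCA-ended sequences held 73722 reads in f/f, 15.3% of the reads of the short sequences, and 189220 in null, 39.2%. Their CPM was 4.06-fold higher in null (4.02 to 4.09), and their median difference 2.71 on the log2 scale; per snoRNA and snRNA read the class stood at 0.942 of f/f, slightly lower in null. At 16 nt lay 71.5% of their f/f reads and 79.6% of their null reads. For 99.4% of their reads in f/f and 99.6% in null, the commonest place in longer reads was the end, and 87.5% and 88.1% began with C.

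CCA leader 1 had 11970 reads in f/f and 20933 in null, 2.76-fold higher (2.70 to 2.83). CCA leader 2 had 8797 and 19168, 3.44-fold higher. Both turn lower in null per snoRNA and snRNA read. CCA leader 3 had 1067 and 9293 reads, 13.8-fold higher (12.9 to 14.7), and CCA leader 4 had 1881 and 7361, 6.19-fold higher, both above 4.31. The leading 15-nt sequence of f/f also ends in CCA and had 4296 reads in f/f and 3151 in null, 1.16-fold higher in CPM. Another, of 17 nt, led its length in null with 1379 and 4731 reads. They are printed as the leaders of their lengths, with the CCA in capitals.
15-nt leader of f/f: ccacttctgacaCCA
17-nt leader of null: accgggcggaaacaCCA
The spread from 1.16-fold to 13.8-fold among these sequences exceeded the counting error of each. The 15-nt leader at its lower end shares its last 15 bases with a 16-nt sequence of 1491 and 4441 reads, 4.71-fold higher. Part of the spread thus lies between lengths of the same end.

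Sequences that share their last 15 bases were joined with longer reads of the same end into 628 families. The number of families is no count of tRNAs. Of the 957 CCA sequences, 639 differed by a base from a sequence with at least 20 times the reads. Such variants can form families apart from that of the commoner sequence, and a family may also stand for several tRNAs alike. The reads of the families formed 2 main lengths, 16 and 22 nt, with a smaller step at 18 nt. In f/f the families had 52817 reads of 16 nt, 33669 of 18 nt and 112740 of 22 nt; in null these were 151260, 36679 and 398603. Reads of 17 nt numbered 8502 in f/f and 21407 in null, and those of 20 nt 3662 and 6985. Of the 68 families with at least 100 short reads in f/f, 16 nt was the commonest length in 23 and 22 nt in 34. Of 117 such families in null, it was 16 nt in 40 and 22 nt in 66. The short share pooled over the families was 28.6% in f/f and 27.0% in null, beside the 4.06-fold higher CPM of the class in null.

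**Figure D5:**
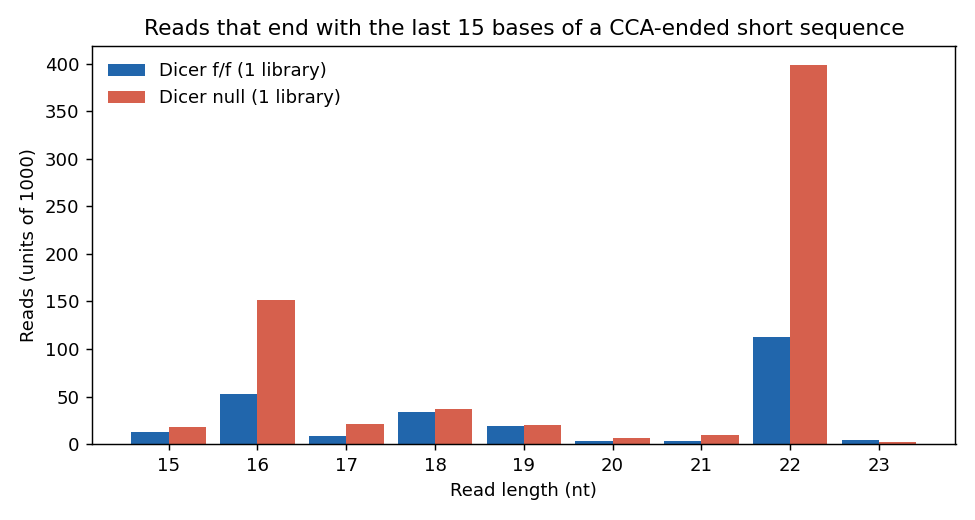
Reads by length (nt; axis in units of 1000 reads) that end with the last 15 bases of a CCA-ended short sequence, in f/f and null (1 library each). The 2 main lengths are 16 nt (52817 reads in f/f, 151260 in null) and 22 nt (112740 and 398603).

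Single families departed from this pattern. The family of CCA leader 4 was nearly all short, with 7466 null reads of 16 nt against 625 of 22 nt, a short share of 84.1% in null and 79.7% in f/f. The family of the 15-nt leader was mostly long, with 4493 null reads of 16 nt against 36230 of 22 nt, a short share of 16.7% in null and 23.9% in f/f. The family of CCA leader 3 had a short share of 63.3% in f/f and 67.7% in null.

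Mitochondrial tRNAs were the exception among the CCA ends. These tRNAs are made and given their CCA inside mitochondria, and their ends could be assigned by matching the bases before the CCA to the end of the annotated genes. They gave 52 sequences from 21 genes, with 2558 reads in f/f and 1249 in null, 1.30-fold lower in null (1.21 to 1.39); 13 were over 2-fold lower, 10 higher and 29 within 2-fold. The other 905 CCA sequences had 71164 and 187971 reads, 4.17-fold higher, with 30 lower and 810 higher. Per snoRNA and snRNA read the mitochondrial ends stood at 0.179 of f/f and the others at 0.969. The lowest ratio was that of mt-Tw, the tryptophan tRNA, with 310 reads in f/f and 48 in null, 4.09-fold lower (3.01 to 5.66). The glycine tRNA mt-Tg had 560 and 243, 1.46-fold lower, and the glutamate tRNA mt-Te 361 and 177, 1.29-fold lower. Of the 21 genes, 13 were below a ratio of 1, 4 lay over 2-fold below f/f and 4 over 2-fold above it, the latter all on 24 null reads or fewer.

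The 2 leading short sequences of null fell in no class. Null leader 1 had 3929 reads in f/f and 36011 in null, 14.5-fold higher (14.02 to 14.97). Null leader 2 had 1182 and 35290, 47.2-fold higher (44.5 to 50.0). They differ by C7A, counted from the 5′ end of the read, and together with CCA leaders 1 and 2 they were the 4 sequences with most null reads. By textbook knowledge, and not by a match made here, such sequences open cytoplasmic lysine tRNAs; nuclear tRNA genes were not matched here.

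Longer reads began with the same bases. Of the null reads that start with the first 15 bases of null leader 1, 68.4% were of 15 to 17 nt, 36077 of them of 16 nt and 107 of 17 nt, and 16170 were of at least 24 nt. For null leader 2 the short share was 68.5%, with 35355 reads of 16 nt, 28 of 17 nt and 15863 of at least 24 nt. Their 3′ end at 16 nt was thus sharp. Another unmatched start behaved otherwise: the 15-nt sequence printed here for contrast had 522 reads in f/f and 3763 in null, 11.4-fold higher, but its short reads were 1.05% of the null reads with this start.
15-nt leader of null: gcattggtggttcag
Over all unmatched sequences, the commonest place in longer reads was the start for 58.5% of the null reads and the end for 13.96%, against 23.8% and 56.0% in f/f. No read exceeds 36 nt, so an RNA longer than this can show its start but not its 3′ end.

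Sequences 1 base away from a far commoner one clustered around the leaders. Of the 6490 sequences, 1764 (27.2%) differed by 1 base from one of the same length with at least 20 times as many reads; they held 5.41% of the f/f and 9.55% of the null reads of the short sequences. They made up 639 of the 957 CCA sequences and 12 of the 840 miRNA sequences. Null leaders 1 and 2 had 41 and 40 such neighbours, with 18.3% and 19.8% of their leader's null reads. The 5 highest ratios of null to f/f among sequences with at least 100 reads included 4 of these neighbours, each with 1 read in f/f. Their source was not tested. Without all neighbours, 1131 of 4726 sequences were lower and 3029 higher.

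The 4233 sequences in no class held 119612 reads in f/f and 262101 in null, 3.46-fold higher in CPM and 0.804 of f/f per snoRNA and snRNA read. A sense match to annotated transcripts outside the classes and snRNAs was found for 18.5% of them, and an antisense match to any transcript for 14.6%. When the last base was left out, 184 of them matched a miRNA hairpin, with 23110 reads in f/f (19.3% of the unmatched reads) and 327 in null, 44.7-fold lower. The added base was T in 62.1% and A in 30.8% of these f/f reads. By number of sequences A led, with 89 against 63 for T. Of the 14342 f/f reads with T, 6527 were of 1 sequence. The commonest was the read of miR-24-3p with an added T, 6527 reads in f/f and 7 in null, more than the 5422 f/f reads of the same stretch without it; it is printed with the added base in small letters as sequenced.
miR-24-3p read with a last T: agttcagcaggaacagt
Another 17 unmatched sequences matched 5S or other rRNA without the last base, with 6258 reads in f/f and 5221 in null, 1.32-fold higher in CPM; 96.5% of their f/f reads ended in T. After leaving out 1 or 2 last bases, 3820 sequences still matched no class, with 79813 and 243661 reads.

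The snoRNA sequences held 7073 reads in f/f and 14117 in null, 3.15-fold higher in CPM (3.07 to 3.25). Per snoRNA and snRNA read they stood at 0.733 of f/f. Of the 311 sequences, 58 lay over 2-fold lower and 187 higher, near the shares over all short sequences (24.3% lower and 64.5% higher). Box C/D and H/ACA snoRNAs differed in direction in CPM. The 124 C/D sequences had 3780 reads in f/f and 6871 in null, 2.87-fold higher. Of them 82 were higher, again near the share over all short sequences, and 15 lower. The 20 H/ACA sequences had 582 and 205 reads, 1.80-fold lower (1.53 to 2.12), with 10 lower and 3 higher. The 2 sequences of small Cajal body RNAs had 39 and 15 reads, with an interval that includes no difference. The 165 under other symbols had 2672 and 7026 reads, 4.16-fold higher. All of these ratios lie under 4.31 and so are below 1 on the snoRNA and snRNA scale.

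The leading snoRNA sequence was a 17-nt read of Snord85 (chromosome 4, 130749634 to 130749706) with 1813 reads in f/f and 2832 in null, 2.47-fold higher. A 17-nt read at the 3′ end of Snord49a (chromosome 11, 62603450 to 62603521) had 565 and 1162, 3.25-fold higher. A 15-nt read of Gm25789, annotated as a snoRNA on chromosome 1 (161038308 to 161038383), had 52 and 749, 22.8-fold higher (17.2 to 30.8). Reads that end within 3 bases of the snoRNA's 3′ end were 47.8% in f/f and 26.8% in null, and those inside it 43.7% and 58.7%.

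Y RNA sequences had the highest ratio of the annotated classes, with 742 reads in f/f and 3729 in null, 7.94-fold higher (7.34 to 8.61) and 1.84-fold per snoRNA and snRNA read; 46 of 55 were higher and 1 lower. Rny1 (chromosome 6, 47788069 to 47788180, minus strand) gave 35 sequences with 512 and 2211 reads, 6.83-fold higher. Rny3 (chromosome 6, 47781624 to 47781725, plus strand) gave 20 with 230 and 1518, 10.4-fold higher (9.07 to 12.04). The leading Rny3 sequence, bases 9 to 24 of the RNA, had 69 reads in f/f and 855 in null, 19.6-fold higher.
Rny3 read: cgagagtagtggtgtt
Reads inside the Y RNA, away from both ends, were 56.2% of the f/f and 89.1% of the null reads, while those at the 3′ end were 24.5% and 4.37%.

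Sequences that matched mitochondrial genes held 1110 reads in f/f and 4861 in null, 6.92-fold higher (6.48 to 7.39) and 1.61-fold per snoRNA and snRNA read, with 65 of 68 higher and 1 lower. The 43 rRNA sequences had 1014 and 4407 reads, 6.87-fold higher, opposite in direction to the mitochondrial tRNA ends above. Of these, mt-Rnr2, the large-subunit rRNA, gave 29 with 958 and 4004 reads, and mt-Rnr1, that of the small subunit, 14 with 56 and 403. The leading sequence, bases 1147 to 1161 of mt-Rnr2, had 263 reads in f/f and 1416 in null, 8.51-fold higher. Sequences of this class from mitochondrial tRNA genes numbered 19, with 88 and 371 reads, and mRNA sequences 6, with 8 and 83.

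The rRNA class was the nearest to equal in CPM, but not per snoRNA and snRNA read, where only the miRNA class stood lower. It held 2907 reads in f/f and 3545 in null, 1.93-fold higher in CPM (1.83 to 2.02). Per snoRNA and snRNA read it stood at 0.448 of f/f. Of its 26 sequences 16 were higher and 1 lower, the share higher being near the 64.5% of all short sequences. All but 2 of its sequences came from 5S rRNA genes, whose many copies cannot be told apart here; these 24 had 2902 and 3515 reads. Of the reads in this class, those within 3 bases of the annotated 3′ end were 62.5% in f/f and 43.2% in null. The 17-nt sequence that closes the annotated RNA had 1253 and 897 reads, 1.13-fold higher in CPM. Longer f/f reads held it at their start 27448 times and at their end 2792 times, so many reads ran past the annotated end. A 17-nt sequence running 1 T past that end fell in no class, with 3839 and 3296 reads, 1.36-fold higher. The class shares and ratio leave such reads out. A 17-nt sequence from bases 94 to 110 had 302 and 1073, 5.62-fold higher (4.94 to 6.40).
5S end: accgggtgctgtaggct
5S bases 94 to 110: cctgggaataccgggtg

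Almost every short sequence was part of a longer one. Counted by the commonest place of each of the 6490 sequences, 68.8% of their reads in f/f and 48.6% in null lay at the end of reads of at least 18 nt in the same library, 10.9% and 34.3% at the start, and 20.2% and 16.8% inside. A sequence can take several places, so these are not the shares found at each place at all. Reads of 36 nt, the longest, were 1.68% of f/f and 14.4% of null. An RNA longer than that is not read to its 3′ end, which limits the comparison of places between the libraries. In no longer read were 0.116% of the f/f and 0.400% of the null reads.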

How the data were processed

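Small RNAs of 2 mouse MSC lines (Dicer f/f and null, 1 library each) were sequenced with the Illumina small RNA protocol, per the labels' protocols. The deposited values are raw counts from the authors, the number of reads of each distinct sequence, with no gene names. The genome build was mm9, per the submitters' processing notes, and was not used here; for trimming and alignment, the tool is not given in the sources used here.

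Distinct sequences of 15 to 17 nt with at least 10 reads in all were matched exactly and in sense to GENCODE M21 (GRCm38) transcripts: 2199 miRNA hairpins, 354 rRNAs, 1559 snoRNAs, 2 Y RNAs and 37 mitochondrial transcripts. A sequence in several classes went to the first of miRNA, rRNA, snoRNA, Y RNA, mitochondrial, CCA end. Nuclear tRNA genes and the 45S rRNA were not used here. Hairpin reads were placed on RefSeq mature forms (GRCm38.p6) with an overlap of at least 12 bases. CPM used all reads of a library, and 0 reads were set to 3 for ratios, given as bounds. At 15 to 17 nt a chance match is possible, and reads shared by gene copies were kept once.

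Sequences were named by a rule: the 10 leading ones of each library, the 3 leading sequences and parent genes of each class, the leading one of each length, and the 5 lowest and highest ratios among those with at least 100 reads; a selection is printed. Mature forms by short share, families by shared ends, mitochondrial tRNA ends, hairpin flanks and 1-base neighbours were chosen after their values were seen. The members and lists were chosen with earlier results of these data known. Work was done in Python 3.11.15 (scipy 1.17.1, numpy 2.4.6, matplotlib 3.10.9, pandas 2.3.3); matching and intervals were tested on simulated data.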

Additional observations from a re-analysis of the deposited data

How the results depend on the processing

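No paired analysis was possible because each genotype had 1 library. With reads of 15 to 23 nt as the denominator, the ratio of null to f/f was 3.89 for 15 to 17 nt and 3.41 for 16 nt; per snoRNA and snRNA read they turned to 0.421 and 0.369, with CCA ends at 0.942, unmatched sequences at 0.804, rRNA at 0.448, snoRNA at 0.733 and miRNAs at 0.0071; the cause was not tested. Windows of 14 to 17 and 15 to 16 nt gave 1.85 and 1.68. Per read of 15 to 17 nt, miRNAs stood at 0.0169, CCA ends at 2.24 and unmatched sequences at 1.91. Minimums of 5, 20 and 100 reads left 13981, 3501 and 930 sequences. Of these, 915 (20 reads) and 288 (100 reads) were lower and 2192 and 560 higher; on the snoRNA and snRNA scale 2367 were lower and 1720 higher. In CPM, 938 were over 4-fold lower and 3393 over 4-fold higher. Without a minimum, f/f had 52.1% miRNA, 14.1% CCA and 31.2% unmatched, and null 32.0% CCA and 61.9% unmatched. With sequences of 1 class only, f/f had 57.1%, 15.4% and 25.03%, and null 1.08% miRNA. With CCA ends first, f/f had 56.4% miRNA and 16.4% CCA. With Mir symbols only, null had 0.934% miRNA and 54.4% unmatched. On the antisense strand, f/f had 3.13% miRNA, 16.4% CCA and 79.6% unmatched, and null 0.153% miRNA and 59.3% unmatched. Matching without the last base, chosen after seeing the data, gave 62.3% miRNA and 18.3% unmatched in f/f, and 1.18% and 52.5% in null. Leaving out 1-base neighbours, also chosen later, kept both counts within 1.5 times. Depth limits single sequences: at 10 reads in all, the intervals of ratios are wide.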
